A study of Mus musculus with 48 samples.

Results

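AM580 is a synthetic retinoid that activates the retinoic acid receptors, with preference for the alpha receptor. The libraries described here are those of mouse embryonic stem cells (ESCs) that received AM580 and were harvested after 24 h, set against control cells (Con) of the same hour. They were chosen by their labels, 2 AM580 and 2 Con libraries, 4 of 31 in the table that holds them and 4 of 48 samples in the series. The study asked whether small molecules could turn ESCs into cells like the somatic cells of the embryonic gonad, which it calls GSCLCs. It tested AM580, vitamin C (Vc) and the pair of them (V580) at 24 h and 48 h. Per the labels the strain was C57BL/6 for all of these libraries, and the source was GSCLCs derived from ESCs. Per the paper, the ESCs were female, were kept on inactivated embryonic fibroblasts in 2i and LIF, and were replated without them on fibronectin after a step to remove the feeders. Lines with and without a GFP transgene were used in the study, and the labels do not say which one gave these libraries. The labels give no dose. They do not say whether the 2 libraries of a group came from separate cultures. The p values thus measure the spread between libraries of a group, which may be technical. That spread was pooled over the 16 libraries of the 8 groups of 24 h and 48 h.

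Retinoic acid reaches its genes through receptors of the RAR and RXR families, which sit as heterodimers on DNA elements made of paired half-sites. Without ligand they hold corepressors, and ligand exchanges these for coactivators. Genes known to respond quickly include ones that limit the signal: the Cyp26 oxidases break retinoic acid down, and Dhrs3 reduces retinaldehyde to retinol. Stra6, another known responder, carries retinol across the membrane. In ESCs retinoids are classical inducers of differentiation, and anterior members of the Hox clusters are among the early responders.

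The values were FPKM (fragments scaled by transcript length and by library size) per gene symbol, from poly(A)-selected total RNA. The low values of a library stepped in units of 1 fragment, which gave estimated depths, in units of 1e6 fragments, of 17.9 to 19.7 for the 4 libraries. Replicates lay close together: the root mean square log2 difference over genes was 0.108 between the AM580 libraries and 0.13 between the Con libraries, against 0.206 to 0.216 between the groups. The labelled cell type was checked with markers. The 8 ESC markers summed to 4182 and 4545 FPKM in Con and 4342 and 4511 FPKM with AM580, and none was under 1 FPKM in all 4 libraries. The 13 fibroblast markers, which feeder cells would carry, summed to 164 and 154 FPKM in Con and 149 and 136 FPKM with AM580. Of the genes that mark gonadal somatic cells, Foxl2 was at 0.125 and 0.0655 FPKM in Con and 0.226 and 0.103 FPKM with AM580, and Nr5a1 was listed at 0 in 3 of the 4 libraries. Other genes of the gonadal list were present, with Wt1 at 8.87 and 8.46 FPKM and Fst at 4.80 and 5.18 FPKM in Con. The 19 genes of that list in the table summed to 40.1 and 38.02 FPKM in Con and 35.3 and 33.7 FPKM with AM580. Cbx2 alone was at 12.1 and 11.3 FPKM in Con, and 8 of the 19 had at least 1 FPKM in at least 2 of the 16 libraries. Whether ESCs or other cells, such as feeders, carried these transcripts was not tested. At 24 h these libraries thus carried ESC markers at high levels and some genes of the gonadal list at lower ones. Foxl2 and Nr5a1 were at or near 0.

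The first question was which genes moved with AM580 within 24 h. A gene counted as called when limma gave it a p below 0.05 after Benjamini-Hochberg (BH) adjustment and a change of at least 2-fold on log2(FPKM + 1), a scale that understates the change of low genes. Of 10644 genes tested, 39 were called higher (0.366%) and 4 lower (0.0376%). Every one of these 43 kept its Con and AM580 libraries apart, which 5765 of the 10644 genes also did. The higher genes ranged from 1.01 to 2.29 in log2 change (median 1.35), and the 4 lower ones from -1.89 to -1.10. On the FPKM scale the higher genes were 2.16- to 9.91-fold above Con, and their Con means ran from 0.177 to 46.6 FPKM, so both barely detected and well expressed genes were among them. By the adjusted p alone, 818 genes rose (7.69%) and 762 fell (7.16%), all but the 43 by less than 2-fold on that scale. Because the fold threshold is hard to reach for low genes on this scale, the fragments behind each value were also estimated and tested with limma voom, a choice made after seeing the data. That test called 117 genes higher (1.10%) and 33 lower (0.311%) of 10621, and the 43 genes were all among them. In bulk RNA, a change in each cell and a change in the share of cells that express a gene cannot be told apart.

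**Figure D1:**
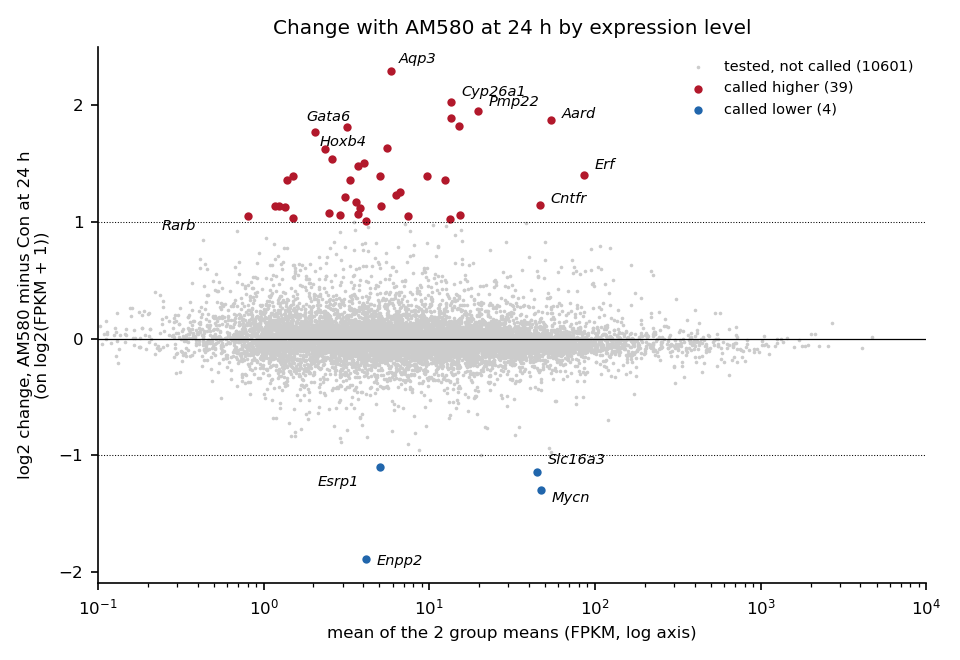
Log2 change between AM580 and Con at 24 h on log2(FPKM + 1) (vertical axis) against the mean of the 2 group means in FPKM (log axis) for 10644 tested genes. Red points are the 39 genes called higher, blue points the 4 called lower, and dotted lines mark 2-fold. The called genes had Con means of at most 67.8 FPKM, and far more of them lay above the upper line than below the lower one.

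Genes that handle retinoids were among the largest rises. Cyp26a1, the oxidase that clears retinoic acid, was at 4.59 and 4.93 FPKM in Con and at 22.4 and 22.4 FPKM with AM580 (log2 change 2.02, SE 0.09, limma adjusted p = 1.82e-09). The AM580 libraries were 4.71-fold above Con on average, and the pairs did not overlap. Dhrs3 went from 0.539 and 0.729 FPKM to 4.05 and 4.03 FPKM (log2 change 1.63, SE 0.076, adjusted p = 2.47e-09). It was thus low in either Con library and several-fold higher in either AM580 library. Stra6, the membrane receptor for retinol uptake, was at 0.0873 and 0.0824 FPKM in Con and 0.858 and 0.623 FPKM with AM580, or 10 and 9 against 95 and 65 estimated fragments. It rose by 0.68 on the log2(FPKM + 1) scale (adjusted p = 2.76e-05), short of 2-fold there, and by 3.05 in voom, which called it. Cyp26b1, a second retinoic acid oxidase, was too low for the test, with 13 and 5 estimated fragments in Con and 73 and 62 with AM580. Its ratio at equal depth was 7.81, with an exact 95% interval of 4.76 to 13.6 that covers counting error only.

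The enzymes that make retinoic acid did not pass the test. Rdh10, the main retinol dehydrogenase of the embryo, was at 1.25 and 1.44 FPKM in Con and 1.47 and 1.63 FPKM with AM580 (adjusted p = 0.566). The retinaldehyde dehydrogenase Aldh1a2 was at 0.651 and 0.636 FPKM and 0.628 and 0.938 FPKM (adjusted p = 0.542), and Aldh1a3 was at 2.71 and 2.28 FPKM and 2.18 and 1.96 FPKM (adjusted p = 0.191). The unadjusted 95% intervals of these log2 changes were -0.13 to 0.38, -0.11 to 0.33 and -0.37 to 0.00, so none of the 3 moved as far as Cyp26a1 or Dhrs3. Aldh1a1 had 1 to 5 estimated fragments in each library and was not tested. Rdh11, a retinal reductase, fell from 7.46 and 7.89 FPKM to 6.06 and 6.18 FPKM (log2 change -0.28, adjusted p = 0.0121). Crabp2, which carries retinoic acid to the nucleus, was at 4.96 and 4.92 FPKM in Con and 5.06 and 4.14 FPKM with AM580 (adjusted p = 0.589), and its pairs overlapped. Over the metabolism list, 9 of 15 genes were tested, 3 were called higher, and 1 more rose and 1 fell by adjusted p. Over all genes 0.366% were called higher, 7.69% rose and 7.16% fell. The median log2 change of the list was 0.12 against -0.01 over all genes.

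Among the receptors, the beta gene stood out. Rarb was close to silent in Con, with 2 and 3 estimated fragments (0.0193 and 0.0304 FPKM), and had 76 and 86 fragments with AM580 (0.760 and 0.913 FPKM). The ratio at equal depth was 33.7, with an exact 95% interval of 14.2 to 105 from counting alone. Its log2(FPKM + 1) change of 0.84 passed the adjusted p (1.25e-06) but not 2-fold, and voom called it with a log2 change of 4.84. Rara, the receptor that AM580 prefers, rose from 15.5 and 14.5 FPKM to 21.2 and 20.1 FPKM (log2 change 0.44, adjusted p = 0.000111). Rarg, the most abundant of the receptors here, rose from 105 and 106 FPKM to 121 and 122 FPKM (log2 change 0.20, adjusted p = 0.00885). Thus all RAR genes were higher in both AM580 libraries than in both Con libraries, and Rarb by a far larger factor than Rara or Rarg. The RXR partners did not pass. Rxra was at 8.06 and 8.56 FPKM in Con and 8.26 and 8.64 FPKM with AM580 (adjusted p = 0.858), and Rxrb was at 20.9 and 19.1 FPKM and 22.1 and 22.3 FPKM (adjusted p = 0.089).

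**Figure D2:**
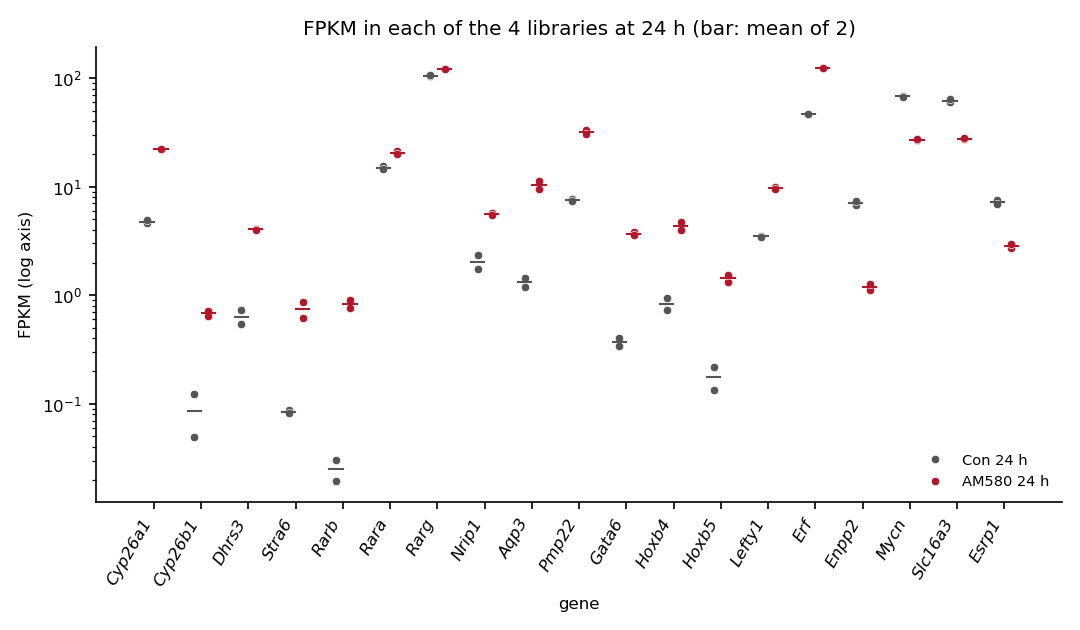
FPKM on a log axis in each of the 4 libraries for genes of retinoid handling, the RAR genes and other genes described in the text. Points are libraries, grey for Con and red for AM580 at 24 h, and short bars are means of 2. Of the genes plotted, Rarb, Stra6 and Cyp26b1 started lowest, and Rara and Rarg moved least.

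The promoters of Cyp26a1 and Rarb are shown because Cyp26a1 was the oxidase called and Rarb had the largest ratio of the receptors, and because the windows of both hold a paired retinoid half-site. The sequences are RefSeq promoters on GRCm38.p6, 100 bases that end at the base before the transcript start, written 5′ to 3′ on the strand of the gene. Cyp26a1 is at chr19:37697708-37697807 on the plus strand and Rarb at chr14:16575477-16575576 on the minus strand. Capitals mark the matched letters.
Cyp26a1: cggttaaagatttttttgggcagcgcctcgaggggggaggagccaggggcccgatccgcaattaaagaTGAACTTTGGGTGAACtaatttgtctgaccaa
Rarb: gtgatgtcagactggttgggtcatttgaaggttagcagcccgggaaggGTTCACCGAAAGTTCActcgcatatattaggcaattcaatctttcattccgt
The search used direct repeats with any letters between the paired sites, in 4 forms: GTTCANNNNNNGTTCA, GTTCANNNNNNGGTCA, GGTCANNNNNNGTTCA and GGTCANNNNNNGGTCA, on both strands. A window that held several overlapping forms was counted once. In Cyp26a1 the match lay on the minus strand at chr19:37697776-37697791 and began 32 bases before the start, and in Rarb it lay on the strand of the gene at chr14:16575513-16575528 and began 52 bases before the start. Over windows of 300 bases around the starts, 81 of 32851 windows held it (0.247%), and 15 of the 8472 tested genes with a window (0.177%). Of the 39 genes called higher, 27 had a window and 1 held the repeat, Cyp26a1. Among the genes without a window in the table were Aard, Adgra2, Cd14, Gata6, Gm13889, Greb1l, Guca1b, Hoxb5, Lefty1, Mmp9 and Porcn. Of the genes voom called higher, 2 of 86 held it, Cyp26a1 and Rarb. A match of letters is a description of these windows and not a bound site.

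Known retinoid-responsive genes outside metabolism moved as well. The list of response genes had 22 members, of which 17 were tested: 14 rose by adjusted p, none fell, and 5 were called, among them Cyp26a1, Dhrs3, Nrip1 and Aqp3. Its median log2 change was 0.58 against -0.01 over all genes, of which 7.69% rose by adjusted p and 0.366% were called higher. Aqp3, a channel for water and glycerol, made the largest change of any gene on the log2(FPKM + 1) scale, though not the largest ratio. It was at 1.45 and 1.20 FPKM in Con and 9.50 and 11.2 FPKM with AM580 (log2 change 2.29, SE 0.085, adjusted p = 2.24e-10). Nrip1, a corepressor recruited by ligand-bound receptors, was at 2.34 and 1.75 FPKM and 5.67 and 5.49 FPKM (log2 change 1.12, SE 0.085, adjusted p = 3.84e-07). Neither pair overlapped, and without Con replicate 2 the change of Nrip1 was 0.98 and no longer 2-fold. Of the 12 cofactors listed, Nrip1 and Ncoa7 rose, against 7.69% of all genes, and the other 10 did not pass. Ncoa7 went from 1.66 and 1.86 FPKM to 2.91 and 2.97 FPKM, while the coactivator Ncoa3 was at 66.4 and 58.9 FPKM and 67.1 and 66.3 FPKM (adjusted p = 0.42) and the corepressor Ncor1 at 24.2 and 20.2 FPKM and 21.9 and 21.6 FPKM (adjusted p = 0.912). The pairs of Ncoa3 and Ncor1 overlapped.

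Hox genes pattern the body axis. Of 39 Hox genes on the list, 20 were in the table and 13 were tested: Hoxa3, the B cluster from Hoxb3 to Hoxb9, and 5 genes of the C cluster. Of these, 6 rose by adjusted p, none fell, and Hoxb4 and Hoxb5 were called, against 7.69% of all genes that rose and 0.366% that were called higher. Those that rose were Hoxa3 and Hoxb4 to Hoxb8, and the clusters were not compared by a test. Hoxb4 was at 0.733 and 0.935 FPKM in Con and 3.96 and 4.72 FPKM with AM580 (log2 change 1.54, SE 0.086, adjusted p = 1.19e-08). Hoxb5 was at 0.219 and 0.134 FPKM and 1.32 and 1.54 FPKM (log2 change 1.05, SE 0.083, adjusted p = 5.68e-07). Both were under 1 FPKM in Con and above it with AM580. The genes are neighbours on chromosome 11, with 12146 bases between Hoxb5 and Hoxb4 in GENCODE vM21 (GRCm38). Hoxb8 went from 0.483 and 0.405 FPKM to 1.64 and 1.59 FPKM (log2 change 0.86, adjusted p = 5.36e-07), Hoxb6 from 0.699 and 0.788 FPKM to 1.37 and 1.59 FPKM (0.51, adjusted p = 0.000616) and Hoxb7 from 0.494 and 1.14 FPKM to 1.53 and 1.38 FPKM (0.46, adjusted p = 0.0293). Outside the B cluster, Hoxa3 rose from 10 and 18 to 74 and 83 estimated fragments (log2 change 0.61 on log2(FPKM + 1), adjusted p = 3.96e-05, and 2.56 in voom). The posterior gene Hoxb9, at 2.53 and 2.09 FPKM in Con and 2.94 and 2.19 FPKM with AM580 (adjusted p = 0.586), and Hoxc6, at 1.54 and 0.975 FPKM and 1.38 and 1.21 FPKM (adjusted p = 0.895), overlapped between the groups. Of the DNA-binding partners of Hox proteins, Meis1 rose from 1.59 and 1.66 FPKM to 3.21 and 3.03 FPKM, Meis2 from 1.5 and 1.38 FPKM to 2.64 and 2.64 FPKM and Pbx2 from 22.0 and 20.2 FPKM to 29.5 and 30.1 FPKM, with log2 changes of 0.65, 0.58 and 0.48 and adjusted p of 2.71e-06, 2.97e-05 and 1.27e-06. No one of these 3 reached 2-fold. The antisense gene Hoxb5os covers 100 of the 2786 exonic bases of Hoxb5 (3.59%), and the library kit names no strand step, so reads from that stretch could belong to either gene.

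Several of the strongest rises were in genes with no place on the retinoid lists. Pmp22, a myelin and membrane protein also known from growth-arrested cells, was at 7.67 and 7.41 FPKM in Con and 33.5 and 30.7 FPKM with AM580 (log2 change 1.95, SE 0.058, adjusted p = 2.59e-11). Mmp9, a secreted gelatinase, was at 5.85 and 6.34 FPKM and 24.4 and 23.7 FPKM (log2 change 1.82, SE 0.063, adjusted p = 1.24e-10). Aard was at 23.4 and 22.1 FPKM and 87.2 and 84.4 FPKM (log2 change 1.87, SE 0.064, adjusted p = 1.24e-10). Each of these was about 4-fold above Con in both AM580 libraries (4.26, 3.94 and 3.78). Erf, an ETS-family repressor that acts downstream of ERK, was the most abundant of the genes called higher, at 46.5 and 46.6 FPKM in Con and 124 and 125 FPKM with AM580 (log2 change 1.40, SE 0.041, adjusted p = 2.59e-11). Its replicates agreed to within 2 FPKM in either group. Guca1a and Guca1b, calcium sensors best known from photoreceptors, lie side by side on opposite strands. They are at chr17:47394558-47400584 and chr17:47385393-47392967 (GRCm38), tail to tail with 1591 bases between them. Guca1b went from 0.958 and 0.743 FPKM to 5.24 and 5.75 FPKM (log2 change 1.81) and Guca1a from 1.92 and 2.50 FPKM to 8.02 and 9.86 FPKM (1.63), with adjusted p of 3.2e-09 and 7.57e-08. Both neighbours rose together and neither overlapped with Con.

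The remaining called genes covered membrane, signalling and metabolic functions. Porcn, the enzyme that lipidates Wnt ligands, was at 6.41 and 6.72 FPKM in Con and 18.4 and 18.4 FPKM with AM580 (log2 change 1.36, adjusted p = 1.81e-07). Adgra2, an adhesion receptor that assists Wnt signalling, was at 3.30 and 3.40 FPKM and 9.59 and 8.83 FPKM (1.23, adjusted p = 3.2e-09). Cntfr, the ligand-binding subunit of the ciliary neurotrophic factor receptor, was at 28.5 and 28.4 FPKM and 64.1 and 64.2 FPKM (1.14, adjusted p = 3.12e-09). These 3 act in making or receiving signals, and all were more than 2-fold higher. Alpl, the alkaline phosphatase long used to stain ESC colonies, was at 8.34 and 8.53 FPKM in Con and 18.4 and 18.1 FPKM with AM580 (1.03, adjusted p = 2.78e-09). Zmiz1, a transcriptional coactivator, was at 4.76 and 4.27 FPKM and 10.3 and 10.4 FPKM (1.05, adjusted p = 4.75e-07), and the mitochondrial phosphatase Pptc7 at 9.94 and 9.20 FPKM and 20.7 and 21.3 FPKM (1.06, adjusted p = 2.23e-08). For Pptc7, 21.2% of its exonic bases are shared with Rad9b, so part of its reads could belong to either gene. The unconventional myosin Myo1f was at 4.79 and 4.99 FPKM and 14 and 14.9 FPKM, Themis2, an adaptor of immune cells, at 1.52 and 1.73 FPKM and 6.72 and 6.15 FPKM, and Tle6 at 1.55 and 1.42 FPKM and 6.03 and 5.83 FPKM, with log2 changes of 1.39, 1.5 and 1.48. The tartrate-resistant phosphatase Acp5 rose from 1.23 and 1.63 FPKM to 5.29 and 5.12 FPKM (1.36), the peptidase Cpm from 1.47 and 1.5 FPKM to 4.70 and 4.78 FPKM (1.21), the axon guidance receptor relative Prtg from 1.94 and 1.74 FPKM to 5.36 and 5.42 FPKM (1.17) and the keratin Krt20 from 2.82 and 2.80 FPKM to 8.17 and 6.67 FPKM (1.14). The rest, Rhobtb1, Greb1l, 2610528J11Rik, Sprr1a, Gm13889, Ccdc88b, Tmtc1, Scube3, Camk1, Cd14 and Fbp1, changed by 1.01 (1.97 and 2.85 to 6.28 and 5.38 FPKM, Fbp1) to 1.39 (1.65 and 3.11 to 7.66 and 7.67 FPKM, 2610528J11Rik).

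Gata6, a factor that drives primitive endoderm and is also made by gonadal somatic cells, had the largest ratio of the called genes. It was at 0.400 and 0.343 FPKM in Con and 3.79 and 3.58 FPKM with AM580 (log2 change 1.77, SE 0.089, adjusted p = 3.64e-09), or 51 and 42 against 469 and 417 estimated fragments, a 9.91-fold ratio. Other factors of endoderm rose beside it. Sox17 went from 12 and 12 to 74 and 60 estimated fragments, Sox7 from 41 and 46 to 113 and 100 and Foxa2 from 4 and 3 to 22 and 13. Their log2(FPKM + 1) changes of 0.64, 0.70 and 0.37 passed the adjusted p (2.99e-05, 2.16e-05 and 0.0204) and missed 2-fold, while voom called all of them. Over the list of extraembryonic endoderm, 15 of 22 genes were tested. By adjusted p 6 rose (Gata6, Gata4, Sox17, Sox7, Foxa2 and Lama1) and Sparc fell, against 7.69% and 7.16% of all genes. The median was 0.15 against -0.01 over all genes. For V580 minus Vc at 24 h the median of the list was 0.02 against -0.02 over all genes. The 18 genes of the list that were in the table summed to 536 and 525 FPKM in Con and 503 and 499 FPKM with AM580. The sum of the smaller set of 8 endoderm markers was 5.41 and 4.76 FPKM in Con and 11.8 and 11.6 FPKM with AM580. Of these 8, Sox17, Foxa2, Dab2 and Cubn stayed under 1 FPKM in all 4 libraries. Pdgfra, another marker of primitive endoderm, was too low for the test, with 21 and 21 estimated fragments in Con and 112 and 86 with AM580.

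Of the gonadal genes that the study followed, Gata4 and Foxl2 were weakly expressed at this hour. Gata4, a factor of the gonadal somatic lineage, was at 0.300 and 0.287 FPKM in Con and 0.647 and 0.816 FPKM with AM580, or 23 and 21 against 48 and 57 estimated fragments. It rose by 0.42 on log2(FPKM + 1) (adjusted p = 0.0118), a 2.49-fold ratio of the means, and voom called it with a log2 change of 1.29. Foxl2, the ovarian determination factor, had 8 and 4 fragments in Con and 14 and 6 with AM580, and the pairs overlapped. A change of Foxl2 was not detectable at this depth. Wt1 fell from 8.87 and 8.46 FPKM to 7.49 and 6.57 FPKM (log2 change -0.27, adjusted p = 0.0083), and the activin antagonist Fst fell from 4.80 and 5.18 FPKM to 2.78 and 2.89 FPKM (-0.64, adjusted p = 1.75e-05). The early gonadal factors Emx2, with 0.881 and 0.657 FPKM in Con and 0.789 and 0.949 FPKM with AM580, and Lhx9, with 0.525 and 0.427 FPKM and 0.582 and 0.641 FPKM, did not pass the filter on low values. In the list of 21 gonadal genes, 8 were tested and the median was -0.11. By adjusted p 1 of them rose and 2 fell, against 7.69% and 7.16% of all genes. Cd63, the surface protein by which the study later sorted GSCLCs, fell from 47.0 and 52.9 FPKM to 41.2 and 41.3 FPKM (log2 change -0.27, adjusted p = 0.00546).

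The 4 genes called lower were a secreted enzyme, an oncogenic factor, a transporter and a splicing regulator. Enpp2 (autotaxin), which makes lysophosphatidic acid, was at 6.76 and 7.46 FPKM in Con and 1.11 and 1.27 FPKM with AM580 (log2 change -1.89, SE 0.088, adjusted p = 2.47e-09). Mycn, the Myc family member of early embryonic cells, was at 69.1 and 66.5 FPKM and 26.7 and 27.3 FPKM (log2 change -1.29, SE 0.062, adjusted p = 2.91e-09). Con was 5.98-fold above AM580 for Enpp2 and 2.51-fold for Mycn, without overlap. Myc, the relative of Mycn, was at 61.5 and 64.0 FPKM in Con and 68.6 and 65.4 FPKM with AM580 (adjusted p = 0.281), with an unadjusted 95% interval of -0.02 to 0.20 for the log2 change. Slc16a3, an exporter of lactate, was at 59.8 and 64.6 FPKM and 27.2 and 27.8 FPKM (log2 change -1.15, SE 0.05, adjusted p = 1.68e-09). Esrp1, which sets epithelial splicing, was at 7.51 and 6.96 FPKM and 2.73 and 2.93 FPKM (log2 change -1.10, SE 0.057, adjusted p = 5.53e-09). Both were more than 2-fold higher in Con, and the pairs were far apart. Just short of the threshold were Tdh, a mitochondrial threonine dehydrogenase of mouse ESCs, at 28.0 and 27.3 FPKM and 13.4 and 13.3 FPKM, and Sema6a, a semaphorin, at 2.25 and 2.28 FPKM and 0.923 and 0.732 FPKM, with log2 changes of -0.998 and -0.84. Some fibroblast markers fell too: Col1a1 fell from 77.7 and 69.8 to 67.4 and 61.7 FPKM, Col1a2 from 19.7 and 18.1 to 16.8 and 15.1 FPKM and Thy1 from 16.2 and 18.5 to 12.8 and 12.9 FPKM, while Twist1 rose from 7.44 and 6.55 to 10.6 and 9.03 FPKM. Of the 11 fibroblast genes tested, 3 fell and 1 rose by adjusted p, against 7.16% and 7.69% of all genes. The part of the fibroblast genes in the genes called lower was not tested.

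Genes of naive pluripotency did not move in 1 direction. Of 16 tested, Nanog, Tfcp2l1 and Tbx3 rose and Sox2, Klf2, Nr5a2, Dppa3, Fgf4 and Tcl1 fell by adjusted p. Over all genes 7.69% rose and 7.16% fell. None of the 16 reached 2-fold on log2(FPKM + 1), and their median was -0.06. By voom Tbx3 alone was called, and its means differed 2.01-fold. Nanog was at 32.5 and 31.9 FPKM in Con and 40.4 and 42.6 FPKM with AM580 (log2 change 0.36, SE 0.049, adjusted p = 0.000137). Tbx3 was at 3.36 and 2.97 FPKM and 6.27 and 6.44 FPKM (0.82, adjusted p = 6.18e-07). Both were higher in each AM580 library than in each Con library. Pou5f1, which encodes Oct4, was at 692 and 758 FPKM in Con and 645 and 656 FPKM with AM580 and did not pass (adjusted p = 0.0733, unadjusted 95% interval of the log2 change -0.27 to -0.04). Sox2 fell from 159.9 and 157 FPKM to 135 and 135 FPKM (-0.23, adjusted p = 0.000763), Klf2 from 32.7 and 30.6 FPKM to 22.6 and 22.1 FPKM (-0.49) and Nr5a2 from 3.41 and 2.95 FPKM to 1.85 and 1.66 FPKM (-0.60). Esrrb, at 37.3 and 37.8 FPKM and 34.9 and 36.6 FPKM (adjusted p = 0.476), and Zfp42, at 42.4 and 46.6 FPKM and 43.3 and 42.4 FPKM (adjusted p = 0.605), did not pass either.

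The genes of formative pluripotency, the state after naive exit, had the lowest median of all the lists. The list had 13 members, of which Otx2, Pou3f1, Sox3 and Zic2 had no values here. Of 9 tested, Fgf5, Dnmt3b, Dnmt3l, Lef1 and Foxd3 fell and Dnmt3a rose by adjusted p, against 7.16% and 7.69% of all genes. The median of the 9 was -0.31 against -0.01 over all genes. Dnmt3b, a de novo DNA methyltransferase, was at 151 and 145 FPKM in Con and 90.2 and 92.3 FPKM with AM580 (log2 change -0.69, SE 0.039, adjusted p = 1.38e-08). Fgf5, a marker of the early epiblast, was at 1.85 and 2.47 FPKM and 0.737 and 0.782 FPKM (-0.84, adjusted p = 1.05e-05). Foxd3 was at 43.6 and 44.6 FPKM and 26.0 and 25.2 FPKM (-0.76, adjusted p = 2.67e-05). In each case both AM580 libraries lay below both Con libraries. Among the DNA methylation enzymes, Tet2, which oxidises methylcytosine, rose from 3.84 and 2.85 FPKM to 5.63 and 5.62 FPKM (0.62, adjusted p = 0.000728), and Dnmt3a rose from 39.8 and 40.9 FPKM to 47.6 and 46.4 FPKM (0.21), against the fall of Dnmt3b and Dnmt3l.

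The signalling lists were read against the 7.69% of all genes that rose and the 7.16% that fell by adjusted p. In the FGF and ERK list, 8 of 14 tested genes rose and 4 fell, with a median of 0.20 and none called. The feedback phosphatase Dusp6 rose from 77.6 and 86.3 FPKM to 127 and 124 FPKM (log2 change 0.61, adjusted p = 3.7e-07), and the inhibitor Spred2 from 26.2 and 21.9 FPKM to 34.8 and 35.2 FPKM (0.53, adjusted p = 0.000209), while the effector Etv5 fell from 94.5 and 91.0 FPKM to 75.2 and 76.2 FPKM (-0.29, adjusted p = 5.08e-05). The feedback genes Spry1, Spry2, Spry4 and Spred1, the effector Etv4 and the receptor Fgfr4 also rose, and the feedback phosphatase Dusp4 and the ligands Fgf4 and Fgf5 fell, so neither feedback genes nor effectors moved 1 way as a group. Of the 14 genes in the list of primitive streak and Nodal, 3 were tested, and Nodal itself had no values here. By adjusted p Eomes and Lefty1 rose. Lefty1, a secreted Nodal inhibitor, was called: it was at 3.53 and 3.46 FPKM in Con and 10.0 and 9.44 FPKM with AM580 (log2 change 1.26, SE 0.045, adjusted p = 1.3e-10). In the Wnt list, 2 of 27 rose, a share near that of all genes, and 4 fell. Axin2, a feedback gene of the pathway, rose from 7.51 and 6.91 FPKM to 12.1 and 10.9 FPKM (0.60, adjusted p = 2.5e-05), and Lef1, its nuclear factor, fell from 5.71 and 5.72 FPKM to 2.65 and 2.82 FPKM (-0.85, adjusted p = 1.94e-06). In the BMP list, Bmp4 rose from 9.30 and 10.0 FPKM to 14.2 and 13.7 FPKM (0.49, adjusted p = 0.00324), Id3 from 24.5 and 25.9 FPKM to 34.1 and 34.9 FPKM (0.44) and Smad6 from 2.79 and 3.21 FPKM to 4.73 and 4.29 FPKM (0.46), while the antagonist Nog fell from 2.10 and 2.67 FPKM to 0.994 and 0.956 FPKM (-0.77, adjusted p = 0.0004). The other 17 of 21 did not pass. In the Notch list none of 10 rose and 3 fell, namely the ligands Dll1 (2.71 and 2.91 to 1.63 and 1.43 FPKM) and Dll3 (2.12 and 1.98 to 1.03 and 0.980 FPKM) and the factor Hes6 (17.1 and 18.2 to 11.8 and 10.9 FPKM).

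Of 8 germ cell genes tested, 4 rose (Sycp3, Dmc1, Smc1b and Dazl), with a median of 0.33 over the 8 and none called. Dazl, an RNA-binding protein of germ cells, went from 12.2 and 12.2 FPKM to 17.0 and 14.8 FPKM (log2 change 0.35, adjusted p = 0.00229), and Sycp3, of the meiotic axis, from 1.93 and 1.48 FPKM to 2.54 and 2.70 FPKM (0.42, adjusted p = 0.0283). Stra8, the retinoid-induced gene of meiotic entry, was not analysed here. Of the 4 endothelial and blood genes tested, Pecam1, which ESCs also express, rose from 13.6 and 13.1 FPKM to 21.9 and 20.6 FPKM (0.63, adjusted p = 4.83e-06), Tie1 rose and Tek fell. The summed markers of these cells were 18.4 and 17.5 FPKM in Con and 26.1 and 24.9 FPKM with AM580. The 2 trophoblast genes tested, Eomes and Gata3, both rose, with Gata3 at 5.84 and 6.07 FPKM and 6.87 and 7.84 FPKM. Of 5 neural genes tested, Pax6 rose and Stmn2 fell, and the median was 0.09. In the epithelial list, Krt7 and Tjp1 rose and Epcam, Cldn4 and Esrp1 fell of 13. The cell cycle genes had small differences: 1 of 20 rose (Ccnd3), none fell, and the median was -0.05. Among p53 targets 1 of 11 rose and 4 fell, and among immediate early genes 2 of 13 rose and 1 fell. Of 12 cholesterol synthesis genes, 4 fell. Over all genes 7.69% rose and 7.16% fell, so a single gene in such a list is near the background. The falls of 4 p53 targets and of 4 cholesterol genes were above that share, and the lists were not tested as sets. None of the 3 Zscan4 or two-cell-like genes and none of the 10 housekeeping genes passed. Of the latter, Gapdh was erratic, at 51.1 and 69.5 FPKM in Con and 11.2 and 80.7 FPKM with AM580.

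**Figure D3:**
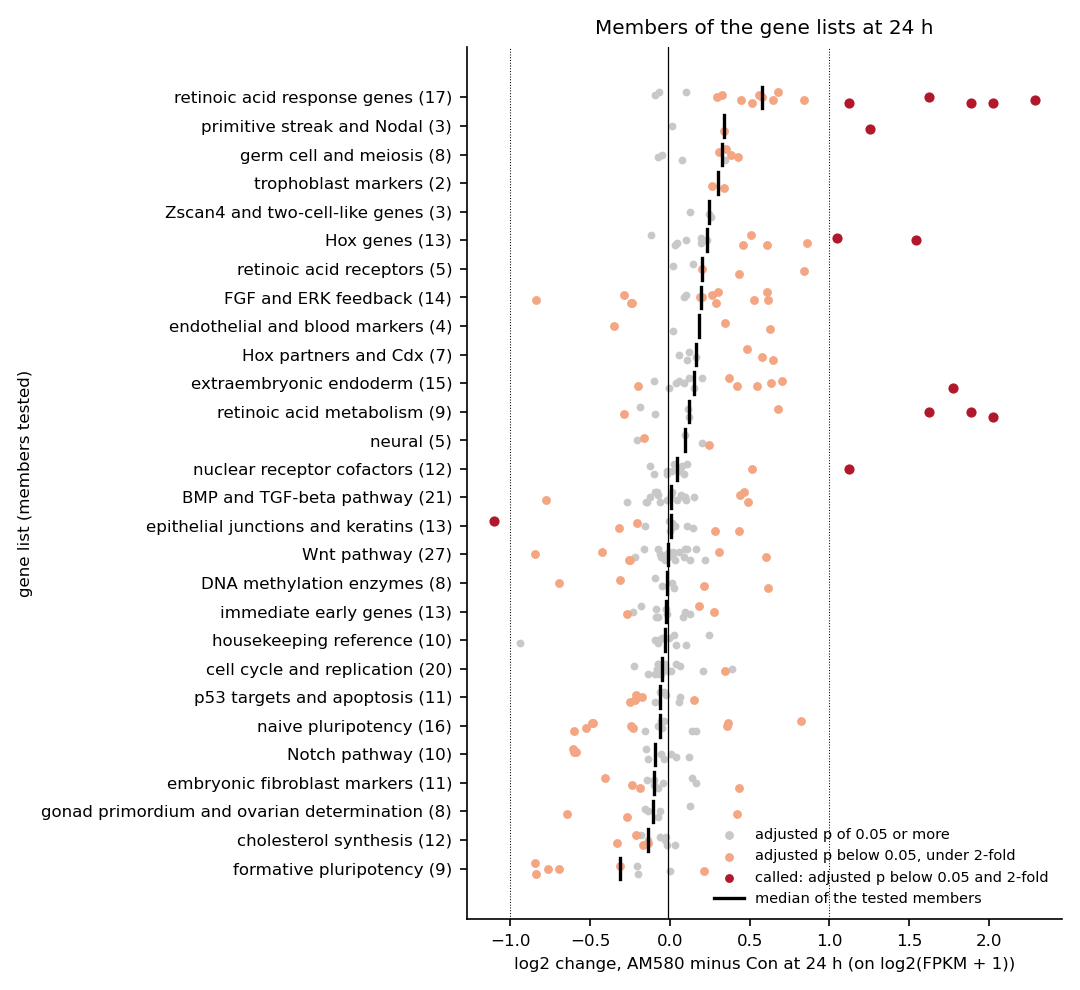
Log2 change at 24 h (horizontal axis, log2(FPKM + 1)) of every tested member of the gene lists, 1 line per list ordered by its median, with the number tested in brackets. Red points were called, orange points passed the adjusted p under 2-fold, grey points did not pass, and black bars are medians. Retinoic acid response genes had the highest median, 0.58, and formative genes the lowest, -0.31.

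The design also allowed AM580 to be read on another background. V580 cells received AM580 with Vc, and Vc cells received Vc alone, in libraries not shared with the comparison above. Between them 32 genes were called higher (0.301%) and 7 lower (0.0658%). The 39 higher genes were all above 0 there (44.9% of all genes were). All of the 39 rose by the adjusted p, against 823 of all 10644 genes tested. Of the 39, 27 were called again, which is 69.2% of the 39 and 84.4% of the 32. The 4 lower genes were all called again, 4 of the 7 (55.1% of all genes were below 0). The median change of the 39 was 1.35 without Vc and 1.26 with it. Cyp26a1, for example, was at 3.12 and 3.29 FPKM in the Vc libraries and 22.4 and 21.5 FPKM in the V580 libraries, and Themis2 at 1.35 and 1.5 FPKM and 10.6 and 11.2 FPKM.

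Whether Vc changed the effect of AM580 was tested as an interaction. By the adjusted p and 2-fold together 0 genes were called in either direction (0%) by limma, and 0 by voom. At an unadjusted p below 0.05 there were 472 of 10644, fewer than the 5% that chance alone would give. By the adjusted p alone 4 genes passed, each with a smaller change beside Vc. Lefty1 was at 1.01 and 1.07 FPKM with Vc and 2.21 and 2.01 FPKM with V580, a change of 0.61 against 1.26 without Vc (difference -0.65, adjusted p = 0.000572). Gata6 was at 0.356 and 0.370 FPKM and 1.58 and 1.72 FPKM, a change of 0.96 against 1.77 (difference -0.81, adjusted p = 0.0347). For both genes the V580 libraries lay above the Vc libraries and below the AM580 libraries. Hoxb8 was at 0.650 and 0.623 FPKM and 0.838 and 0.917 FPKM (0.20 against 0.86, difference -0.66, adjusted p = 0.0327). Axin2 was at 8.39 and 8.64 FPKM and 8.53 and 8.06 FPKM (-0.03 against 0.60, difference -0.64, adjusted p = 0.0347), and its Vc and V580 libraries overlapped. By voom Axin2 kept an adjusted p of 0.0161, while those of Lefty1, Gata6 and Hoxb8 were 0.9996, 0.792 and 0.477. The voom differences themselves were -0.47 for Lefty1, -1.13 for Gata6 and -1.39 for Hoxb8. Gata4, which rose without Vc, was at 0.170 and 0.280 FPKM with Vc and 0.138 and 0.206 FPKM with V580 and did not pass there (log2 change -0.06, adjusted p = 0.741). Its difference between the backgrounds was -0.48 and did not pass either (adjusted p = 0.68).

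**Figure D4:**
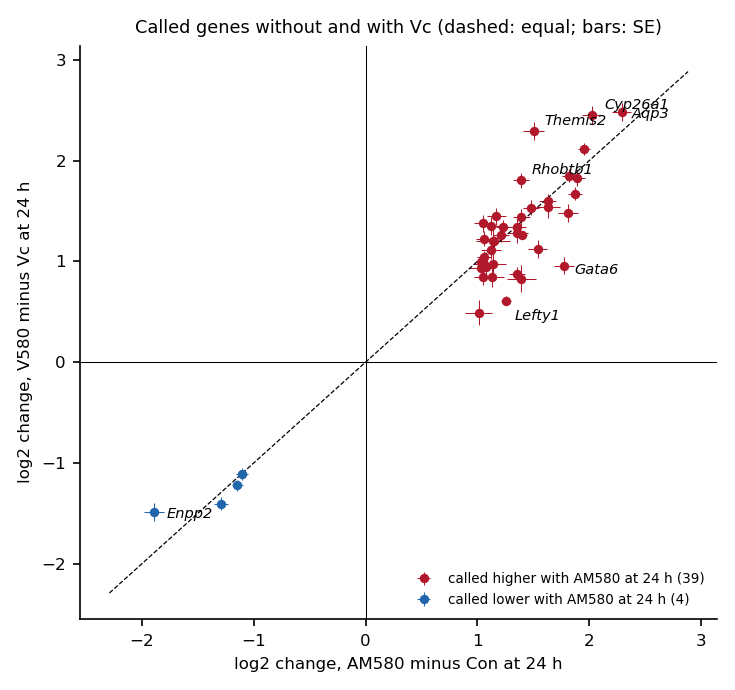
Log2 change of the 43 called genes without Vc (AM580 minus Con, horizontal axis) and with Vc (V580 minus Vc, vertical axis) at 24 h, with SE bars. The dashed line marks equal change, and Gata6 and Lefty1 sit below it.

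The same contrast at 48 h, in separate libraries, was far wider. There 248 genes were called higher (2.33%) and 96 lower (0.902%). The 39 genes higher at 24 h were all above 0 at 48 h (45.9% of all genes were). By the adjusted p 38 of them rose, against 2737 of all 10644 genes tested. Of the 39, 27 were called, 69.2% of the 39 and 10.9% of the 248. The exception to the adjusted p was Gm13889, at 0 and 0.0341 FPKM in Con and 0.110 and 0.0379 FPKM with AM580 at 48 h. Of the 4 lower genes, which were below 0 again (54.1% of all genes were), 3 were called at 48 h and Slc16a3 was not, at 73.2 and 76.3 FPKM in Con and 43.9 and 47.5 FPKM with AM580.

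The change between the hours was tested as a second interaction, which called 150 genes higher (1.41%) and 52 lower (0.489%). Among the 39 genes, 9 had a larger rise at 48 h, 3 a smaller one, and 27 were not called. Cyp26a1 was at 1.05 and 0.670 FPKM in Con and 87.4 and 93.9 FPKM with AM580 at 48 h, so its control level was lower and its AM580 level higher than at 24 h (difference of log2 changes 3.61, adjusted p = 6.41e-11). Hoxb5 reached 25.4 and 26.3 FPKM over 0.379 and 0.341 FPKM (3.26, adjusted p = 7.06e-11) and Hoxb4 38.7 and 37.0 FPKM over 0.863 and 0.870 FPKM (2.84, adjusted p = 5.18e-10). With AM580 both Hox genes thus stood under 5 FPKM at 24 h and far above it at 48 h. Dhrs3 reached 15.9 and 15.8 FPKM over 1.01 and 1.01 FPKM (1.44, adjusted p = 1.61e-07), and Stra6 4.41 and 4.23 FPKM over 0.449 and 0.513 FPKM (1.17, adjusted p = 2.18e-06). Crabp2, which did not pass at 24 h, was at 12.4 and 12 FPKM in Con and 31.0 and 31.9 FPKM with AM580 (1.39, adjusted p = 2.22e-06). Lefty1 was far higher in Con than at 24 h, at 99.9 and 96.2 FPKM, and stood at 492 and 507 FPKM with AM580 (1.08, adjusted p = 1.36e-08). Pmp22, Krt20, Aard and Greb1l were the others with a larger rise. Voom did not call the difference for 3 of these genes: it was 0.11 for Stra6 (adjusted p = 0.857), 0.41 for Greb1l (adjusted p = 0.0919) and 0.87 for Lefty1, which passed the adjusted p (2e-05) but not 2-fold.

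Aqp3, with the largest change at 24 h on log2(FPKM + 1), went the other way. At 48 h it was at 0.523 and 0.519 FPKM in Con and 1.00 and 0.808 FPKM with AM580 (log2 change 0.32, difference -1.97, adjusted p = 2.49e-08). Themis2 was at 1.26 and 1.06 FPKM and 1.62 and 1.49 FPKM (0.24, difference -1.26, adjusted p = 5.32e-06). Together with Gm13889 these were the genes of the 39 whose rise was smaller at 48 h by this test. Voom called the difference for Aqp3 and Themis2 but not for Gm13889 (-0.84, adjusted p = 0.573), which was near 0 FPKM in each library of 48 h. Of the lower genes, Mycn was at 63.9 and 67.1 FPKM in Con and 7.48 and 7.19 FPKM with AM580 (difference -1.70, adjusted p = 4.16e-09) and Enpp2 at 13.6 and 14.1 FPKM and 0.123 and 0.119 FPKM (difference -1.84, adjusted p = 6.54e-08), both with a larger fall than at 24 h. Gata4 was at 0.863 and 0.742 FPKM in Con and 5.32 and 5.72 FPKM with AM580 at 48 h (log2 change 1.85, adjusted p = 1.48e-09). Foxl2 was at 0.124 and 0.0146 FPKM and 0.422 and 0.243 FPKM and stayed under the filter on low values. Pou5f1 was at 451 and 461 FPKM in Con and 182 and 195 FPKM with AM580 (log2 change -1.27, adjusted p = 8.5e-11).

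**Figure D5:**
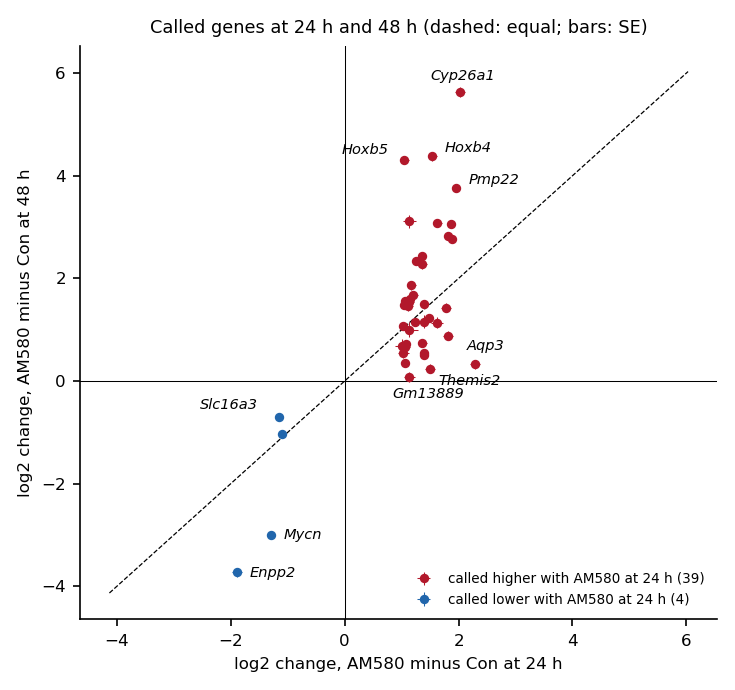
Log2 change of the 43 called genes at 24 h (horizontal axis) and 48 h (vertical axis), AM580 minus Con, with SE bars. The dashed line marks equal change. Cyp26a1, Hoxb4 and Hoxb5 lie far above it, and Aqp3 and Themis2 far below.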

How the data were processed

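Poly(A) RNA of ESC-derived cells was sequenced by the study as read pairs on a HiSeq, with a library kit for which no strand step is named. The submitters' processing notes name mm10, Trim Galore, FastQC, HISAT2, SAMtools, featureCounts and RSEM, and the tool that made these values is not given in the sources used here. The table used holds FPKM values that the authors deposited, 13682 gene symbols by 31 libraries, already scaled by gene length and library size, with no counts. Every value column was matched to a sample (0 were left unused).

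Genes with at least 1 FPKM in at least 2 of the 16 libraries of 24 h and 48 h were tested (10644). log2(FPKM + 1) was fitted with limma 3.58.1 (limma-trend, R 4.3.3) in 1 model of the 8 groups, without a replicate term, and p values were BH adjusted over all genes tested. A gene was called at an adjusted p below 0.05 and 2-fold. Estimated fragments came from the steps in low FPKM values and exon lengths of GENCODE vM21 (GRCm38), found for 99.8% of symbols. Of the low values, 97.1% to 97.2% lay within 0.1 of a whole fragment in the 4 libraries. They were tested with limma voom as an added alternative. The depth of a library sets the precision of low genes, and intervals cover counting error only. The fits were tested on simulated data.

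The members and gene lists were chosen with earlier results of these data known. Named genes were the 15 largest called rises and falls with a group mean of at least 5 FPKM and no overlap, called members of the lists, up to 3 abundant members of each list that were not called, genes the study names for these cells, and the receptors and retinoid metabolism genes whole. Other genes were named after their values were seen, among them Hoxa3, Hoxb6, Hoxb8, Sox17, Sox7, Foxa2, Pdgfra, Lef1, Fgf5, Foxd3, Nog, Dll1, Dll3, Tbx3, Klf2, Nr5a2, Dusp6, Spred2, Etv5, Axin2, Tet2, Dnmt3b, Meis1, Meis2, Id3, Smad6, Bmp4, Tdh, Sema6a, Thy1 and Twist1. Some genes that this rule names are not reported here. Promoter sequences are from RefSeq. Alternatives were another pseudocount, filters, scalings, a replicate block, fewer libraries and leaving out each library. The other deposited files of the series were not used here.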

Additional observations from a re-analysis of the deposited data

Results flagged for a closer look

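The effect of AM580 at 48 h differed from that at 24 h, by limma's interaction test (BH adjusted p below 0.05 and 2-fold), for the genes named here. The values are differences of log2 changes, 48 h minus 24 h, on log2(FPKM + 1). Genes that handle or carry retinoids had a larger rise at 48 h: Cyp26a1 by 3.61, Dhrs3 by 1.44, Crabp2 by 1.39 and Stra6 by 1.17. So did Hoxb5 by 3.26, Hoxb4 by 2.84, Krt20 by 1.97, Pmp22 by 1.80, Aard by 1.19, Greb1l by 1.08 and Lefty1 by 1.08. By limma voom the differences of Stra6 (0.11), Greb1l (0.41), Lefty1 (0.87) and, of the genes given next, Gm13889 (-0.84) were not called. Lower differences were those of Aqp3 (-1.97), Themis2 (-1.26) and Gm13889 (-1.06), whose rise was smaller at 48 h, and of Enpp2 (-1.84) and Mycn (-1.70), whose fall was larger.

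The effect of AM580 at 24 h was smaller with Vc than without it, by the adjusted p of the interaction, for 4 genes. The differences of log2 changes were -0.81 for Gata6, -0.66 for Hoxb8, -0.65 for Lefty1 and -0.64 for Axin2. With limma voom, Axin2 passed (adjusted p = 0.0161) and the other 3 did not, with differences of -1.13 for Gata6, -1.39 for Hoxb8 and -0.47 for Lefty1. The labels give no batch for these libraries, so a batch and a group cannot be told apart.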

How the results depend on the processing

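The counts of genes called moved with the scale and with the fold threshold. With a pseudocount of 0.1 in place of 1, 101 genes were called higher and 23 lower, against 39 and 4, and the calls were 129 for V580 against Vc, 664 for AM580 at 48 h, 1 for the interaction with Vc and 435 for the interaction with time. Without the 2-fold threshold these were 818, 762, 1803, 6063, 4 and 3721. By limma voom on estimated fragments, chosen after seeing the data, they were 117, 33, 157, 736, 0 and 487. An unadjusted p below 0.05 with 2-fold gave 3 for the interaction with Vc. A filter at 5 FPKM, no filter, upper-quartile scaling, quantile normalization, no trend and fewer libraries in the model left each count within 1.5 times. Leaving out each library of a comparison in turn gave 39 to 41 genes higher, 5 to 6 lower, 41 to 48 for V580 against Vc, 343 to 349 at 48 h, 0 to 0 for Vc and 198 to 215 for time. Below 2-fold were Hoxb5 without AM580 replicate 2 (0.982) or Con replicate 2 (0.996) and Nrip1 without Con replicate 2 (0.98). No named gene reversed. A lone library is assumed there to vary like the other groups.

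With the replicate number as a block (replicate block), the counts were 39 higher, 4 lower, 39 for V580 against Vc, 344 at 48 h, 0 for Vc and 202 for time, and it changed the call of none of the 162 genes named and tested. Samples of equal number did not consistently deviate together. The correlations of their deviations ran from -0.42 to 0.21 over 28 pairs of groups, with 0.036 for AM580 and Con at 24 h. At 24 h, Con replicate 1 lay nearer Vc replicate 2 (root mean square log2 difference 0.1789) than Vc replicate 1 (0.2025). Con replicate 2 lay nearer Vc replicate 1 (0.1782) than Vc replicate 2 (0.1981). A block on equal numbers cannot detect a batch that crosses the numbers, and such a batch was not tested. Depth limits Rarb, Foxl2, Cyp26b1, Stra6 and Dkk1, which had few fragments, and with 2 libraries a group a difference that missed the threshold was not shown to be absent.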

Other observations

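Genes too low to reach 2-fold on log2(FPKM + 1) formed a further set, chosen here after their values were seen. The receptor kinase Kit was at 0.691 and 0.826 FPKM in Con and 2.10 and 1.91 FPKM with AM580 at 24 h, with 121 and 138 against 355 and 305 estimated fragments, and limma voom called it at a log2 change of 1.41. The heart factor Nkx2-5 had 23 and 21 against 51 and 55 fragments (1.31). Fgfr4, an FGF receptor, had 85 and 54 against 137 and 132 (1.04). All of these were called higher by voom, and their pairs did not overlap. The Wnt inhibitor Dkk1 had 3 and 1 fragments in Con and 15 and 5 with AM580. Its ratio at equal depth was 5.20, with an exact 95% interval of 1.74 to 20.9 from counting alone. On the Vc background no rise of Dkk1 was seen, at 0.0683 and 0.0251 FPKM with Vc and 0.0222 and 0 FPKM with V580.

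Of the genes lower by voom, Myb, a factor of proliferating progenitors, had 151 and 134 fragments in Con and 50 and 43 with AM580 (-1.55). The semaphorin Sema6a had 388 and 375 and 154 and 115 (-1.45), and the BMP antagonist Nog 70 and 85 and 32 and 29 (-1.26). In each, both AM580 libraries lay under both Con libraries. At the same hour Pou5f1, Sox2 and Nanog, the trio of factors behind the ESC state, moved less, all within 1.5-fold between the group means. Both AM580 libraries of Pou5f1 and of Sox2 also lay under both Con libraries, and those of Nanog lay above.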
